A study of Mus musculus with 4 samples.

Results

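The transcripts described here are the structural genes of the mitochondrial respiratory chain, measured in single cells of mouse hindlimb muscle. Members were taken by symbol from the gene list of the count matrices: every mt- gene, and every gene starting with Ndufa, Ndufb, Ndufc, Ndufs, Ndufv, Uqcr, Cox4 to Cox8 or Atp5, with Sdha to Sdhd, leaving out assembly factors (Ndufaf, Sdhaf) and symbols ending in -ps. This gave 98 members of 32285 genes, of which 85 are nuclear and 13 lie on the mitochondrial genome. By name, 38 nuclear members belong to complex I, 4 to complex II, 8 to complex III, 18 to complex IV and 17 to complex V, and 7, 0, 1, 3 and 2 mitochondrial members to the same complexes.

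Cells came from 2-month-old male S100GFP-tg mice, in which the S100B promoter drives GFP in Schwann cells. The tibialis anterior and gastrocnemius of 4 mice per genotype were pooled and digested, and live (PI-) cells were sorted into GFP+ and GFP- fractions. WT mice were compared with Sod1-/- mice (Sod1KO), which lack the cytosolic superoxide dismutase and which the study used as a model of nerve terminals that withdraw and return; mice of both genotypes carried the transgene. Each of the 4 combinations was 1 library, so a difference between genotypes has no replicate check, no test was made, and every interval below is an exact 95% interval for counting error only. Differences between animals, dissections or libraries cannot be told apart from genotype.

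The inner mitochondrial membrane carries electrons from NADH (complex I) and succinate (complex II) through complex III to oxygen at complex IV, and the proton gradient they build drives ATP synthase (complex V). Most subunits are encoded in the nucleus and imported, while some core membrane subunits of complexes I, III, IV and V are encoded by mitochondrial DNA, so that both genomes must supply each of these complexes. Several complex IV subunits exist as isoforms from separate genes, some of which are known from heart and skeletal muscle, lung or testis. Schwann cells, the glia of peripheral nerve, wrap axons (myelinating Schwann cells, mSC) or cover them without myelin, as terminal Schwann cells (tSC) do at the neuromuscular junction.

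After leaving out cells with 200 genes or fewer and simulated-doublet neighbours, 5108, 6697, 1976 and 6039 cells remained in the WT GFP+, Sod1KO GFP+, WT GFP- and Sod1KO GFP- libraries, with a median of 10385, 11648, 6167.5 and 13636 UMIs per cell. Libraries shared 1 to 13 cell barcodes per pair. Clustering was done without the 98 members, and clusters were named "-like" after marker lists; 7003 of 19820 cells lay in clusters that got no name. Sod1 was at 89.8, 97.2, 122 and 111 CPM (UMIs of a gene per 1000000 UMIs of the library or class) in the same order of libraries, and in tenocyte-like GFP+ cells at 74.3 CPM in WT and 112 CPM in Sod1KO (a log2 ratio of 0.59, 0.49 to 0.69). The targeted transcript was thus not lost in the libraries labelled Sod1KO. Its log2 ratio was 0.11 (0.07 to 0.16) over all GFP+ cells and -0.13 (-0.19 to -0.07) over all GFP- cells. In tSC-like and endothelial-like GFP+ cells it was -0.23 (-0.40 to -0.07) and -0.29 (-0.49 to -0.09). The labels do not say whether its 3' tags lie in the deleted sequence, so the genotype labels could not be checked. WT and Sod1KO below are the libraries so labelled. A list of 14 genes of skeletal muscle fibres, which the sort was not meant to hold, summed to 68.3, 110, 68.8 and 586 CPM, and its part in the results was not tested.

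Over all cells the nuclear members summed to 19799 CPM for WT and 18345 for Sod1KO cells of the GFP+ sort, and to 19377 and 19119 CPM for those of the GFP- sort. The mt- members summed to 43673, 44578, 36782 and 49303 CPM in the same order. The nuclear sums of the 4 libraries thus lay close together, while the mt- sum was lowest in WT GFP- and highest in Sod1KO GFP-. The log2 ratio of Sod1KO over WT was -0.11 (-0.11 to -0.11) for the nuclear and 0.03 (0.03 to 0.03) for the mt- members among GFP+ cells. Among GFP- cells it was -0.02 (-0.02 to -0.01) and 0.42 (0.42 to 0.43), but the latter turned to -0.15 where each cell was given equal weight (a mean of per-cell CPM), so its direction depends on the weighting. Complex I took the most nuclear UMIs, with 6858, 6548, 6577 and 6598 CPM, and complex II the fewest, with 361, 308, 350 and 340 CPM.

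Because each captured molecule gives 1 tag at its 3' end, these CPM need no correction for length and may be compared between genes, although capture can differ from gene to gene. The 5 nuclear members of highest level were all small subunits. Cox8a of complex IV had 831, 689, 736 and 699 CPM in WT GFP+, Sod1KO GFP+, WT GFP- and Sod1KO GFP-. Cox6c had 740, 674, 716 and 688 CPM, and Cox4i1, the broadly used subunit 4 of the same complex, 701, 695, 675 and 685 CPM. Atp5e, the epsilon subunit of ATP synthase, had 631, 643, 523 and 536 CPM, and Cox7c of complex IV 627, 542, 584 and 520 CPM. The spread between libraries was thus small beside the spread between genes, whose median over the 85 was 204 CPM. Only 6 nuclear members stayed under 20 CPM over all cells, all of them complex IV isoforms (Cox7b2, Cox6b2, Cox7a1, Cox6a2, Cox8b and Cox8c).

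Among the mt- genes, mt-Atp6, the proton channel subunit of ATP synthase, was highest at 8799, 9332, 6319 and 10905 CPM, and took 20.1%, 20.9%, 17.2% and 22.1% of all mt- UMIs. The complex IV core genes mt-Co3, mt-Co2 and mt-Co1 took 16.4%, 14.2% and 12.5% of the mt- UMIs of all libraries together and mt-Cytb of complex III 11.5%. At the other end stood mt-Atp8 with 0.366% and mt-Nd6 with 0.134%. Both mitochondrial strands are transcribed as long precursors, and mt-Nd6 lies on the strand opposite to mt-Nd5. The counted level of the mt- genes ranged from 60.7 CPM for mt-Nd6 to 9474 CPM for mt-Atp6. Coding sequences overlap in 4 places of the reference (GRCm38.p6), by 43 bases between mt-Atp8 (chrM:7766-7969) and mt-Atp6 (chrM:7927-8607), 14 between mt-Nd5 and mt-Nd6 on opposite strands, 7 between mt-Nd4l and mt-Nd4 and 1 between mt-Atp6 and mt-Co3, and counts of these neighbours are less certain.

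Levels differed more between cell classes than between libraries. Smooth muscle-like cells stood highest in both sets: their nuclear members summed to 34863, 33087, 37438 and 37895 CPM in the 4 libraries, and no other named class passed 22689 CPM in any library. Of the 81 nuclear members above 20 CPM in some class, 69 were highest in smooth muscle-like cells, as were all 13 mt- members. The class joins cluster 3, with 83803 CPM of mt- and 37526 CPM of nuclear members, and cluster 18, with 304654 and 5508 CPM. Counts by highest or lowest class were not made over all genes, so a trait of the members cannot be told apart from one of the class. The lowest class was lymphatic endothelial-like for 60 of the 81, tenocyte-like for 11 and macrophage-like for 6. For the mt- members it was mesenchymal-like for 11 of 13, with a sum of 22651 CPM over all libraries against 99205 CPM in smooth muscle-like cells.

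**Figure D1:**
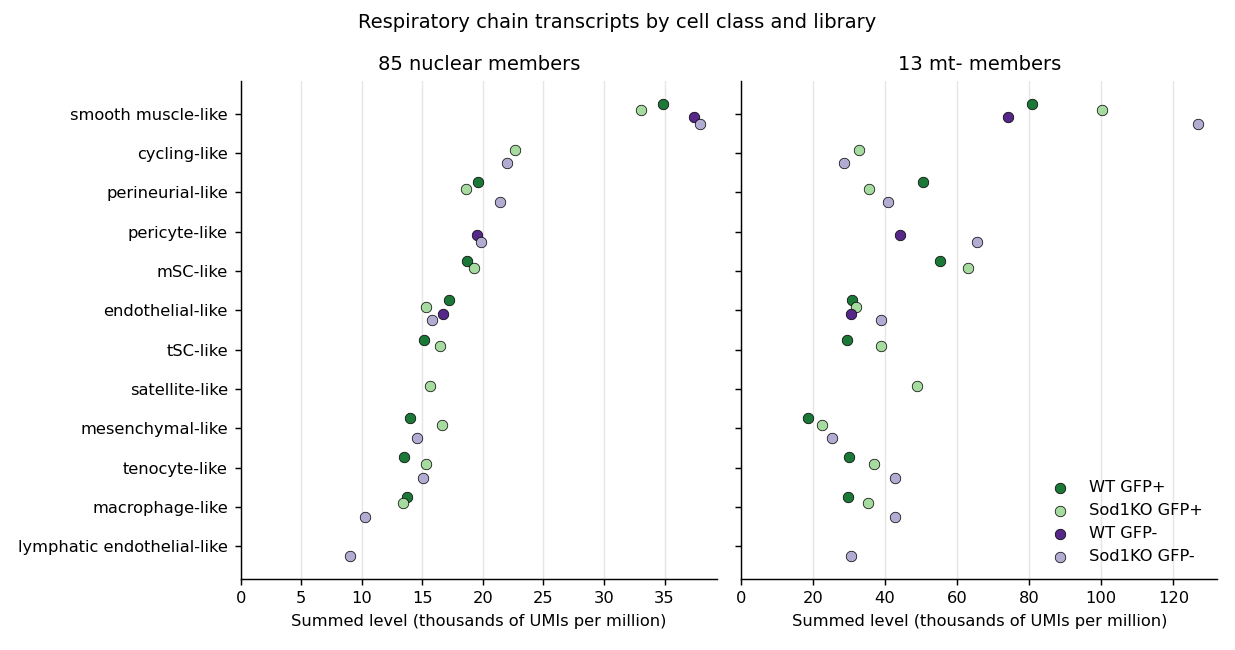
Summed level of the 85 nuclear (left) and 13 mt- members (right) in CPM, with the axis labels divided by 1000, for each class of cells and each library with 50 or more cells of it; each point is 1 library and has no replicate error. Smooth muscle-like cells stand to the right of all other classes in both panels, between 33087 and 37895 CPM for the nuclear members.

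The order of the other classes was not the same in both sets. Cycling-like cells came second by nuclear members (22295 CPM over the libraries together) and had the second lowest mt- sum (28940 CPM). The mSC-like cells had 18655 CPM of nuclear members in WT GFP+ and 19272 in Sod1KO GFP+, and 55241 and 62917 CPM of mt- members. The tSC-like cells had 15145.5 and 16466 CPM of nuclear and 29422.5 and 38867 CPM of mt- members in the same libraries. Myelinating Schwann-like cells thus stood above the tSC-like cells in both sets and in both genotypes, with no overlap between the libraries of the classes. The highest class exceeded the lowest by a median of 3.92-fold over the 81 nuclear members and 4.60-fold over the mt- members. The flattest was Ndufs4, an accessory subunit of complex I, with a 1.84-fold range.

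A member was called class-restricted where its highest class was over 4 times the median of the other classes and over 20 CPM. Only 5 of 94 members met this (5 of the 81 nuclear and none of the 13 mt- members), against 42.2% of all 10960 genes above 20 CPM in some class. They were Ndufa4l2 (chr10:127509274-127517154, GRCm38.p6), Cox4i2 (chr2:152753916-152765039), Cox6b2 (chr7:4751792-4753094), Cox7a1 (chr7:30184171-30186030) and Sdhc (chr1:171129157-171150640). All but Sdhc, the membrane anchor of complex II, have a paralogue among the members. Sdhc had 258 CPM in smooth muscle-like cells, 106 CPM in mSC-like cells and 38.8 CPM in tenocyte-like cells, and passed the limit narrowly at 4.38 times the median of the other classes.

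Ndufa4l2 is a hypoxia-induced relative of Ndufa4, which was named for complex I and is now known as a subunit of complex IV. In pericyte-like cells Ndufa4l2 was at 1731 CPM in WT GFP- and 1547 in Sod1KO GFP-, and Ndufa4 at 32.6 and 48.7 CPM. Ndufa4l2 thus made up 97.0% (96.5 to 97.4) of the UMIs of the pair in this class. Tenocyte-like cells were next, with 608, 760 and 675 CPM of Ndufa4l2 in WT GFP+, Sod1KO GFP+ and Sod1KO GFP- and 193, 226 and 219 CPM of Ndufa4, a share of 76.5% (76.1 to 76.9). In smooth muscle-like cells the order was turned, with a share of 27.8% (27.3 to 28.3), and in mSC-like cells the share was 0.479% in WT GFP+ and 1.75% in Sod1KO GFP+. In perineurial-like cells it was 0.658% and 0.730% in the same libraries, from 1 and 3 UMIs of Ndufa4l2, and 3.17% in Sod1KO GFP-. Pericyte-like cells also had the lowest Ndufa4 of any class, 48.4 CPM, where the lymphatic endothelial-like cells, next in order, had 151 CPM.

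Cox4i2 is the alternative form of the Cox4 subunit, known from lung and from responses to low oxygen. It was at 798 and 680 CPM in pericyte-like cells of WT GFP- and Sod1KO GFP-, beside 542 and 633 CPM of Cox4i1. In smooth muscle-like cells it was at 162, 163, 225 and 219 CPM in WT GFP+, Sod1KO GFP+, WT GFP- and Sod1KO GFP-, beside 1069 to 1178 CPM of Cox4i1. The 2 alternative forms therefore shared their highest class, but tenocyte-like cells, rich in Ndufa4l2, had 2.76 CPM of Cox4i2 over all libraries. The Cox4i2 share of the Cox4 pair was 51.7% (50.2 to 53.3) in pericyte-like, 0.528% in tenocyte-like and 0.175% in perineurial-like cells, and in smooth muscle-like cells it was 6338 of 45281 UMIs (95% interval 13.7 to 14.3%). Levels of a few CPM in the other classes cannot be told apart from free RNA, which droplets of every class take up.

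**Figure D2:**
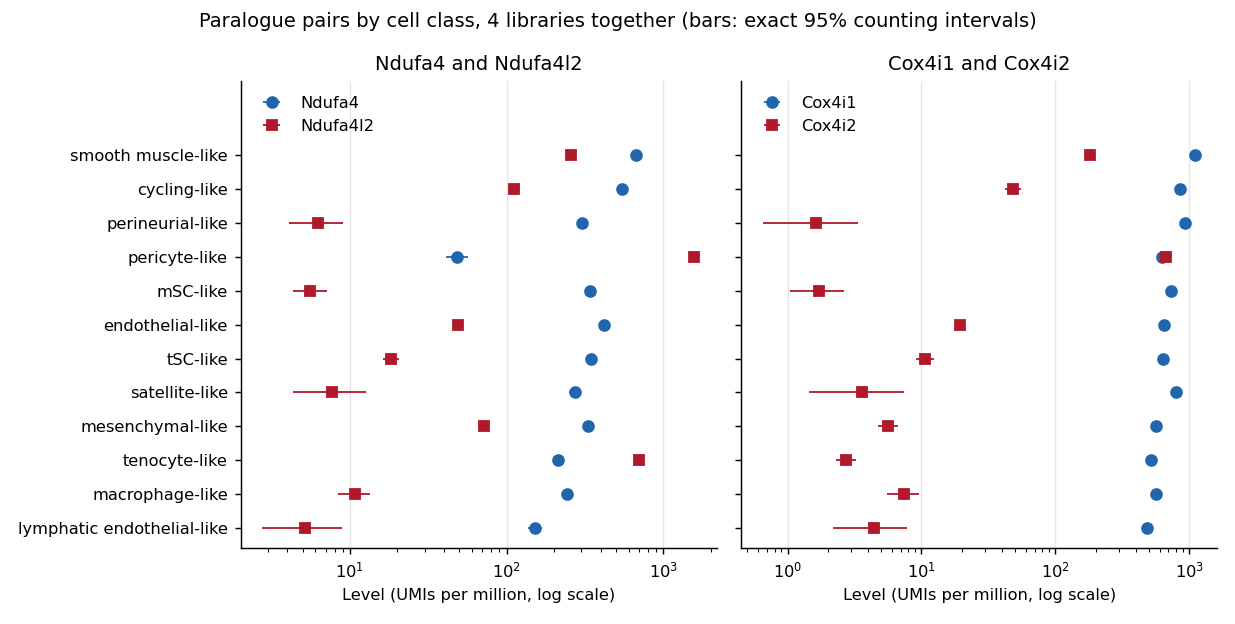
Levels of Ndufa4 and Ndufa4l2 (left) and Cox4i1 and Cox4i2 (right) in CPM on a log axis, by class, with the 4 libraries together; bars are exact 95% counting intervals. Ndufa4l2 lies right of Ndufa4 in pericyte-like and tenocyte-like cells, and Cox4i2 reaches Cox4i1 in pericyte-like cells at 672 and 627 CPM.

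Cox6b2, known as the testis form of Cox6b, was highest in perineurial-like cells, the sheath cells of nerve fascicles, at 106, 62.6 and 57.7 CPM in WT GFP+, Sod1KO GFP+ and Sod1KO GFP-. Cox6b1, the broad form, had 377 CPM there over all libraries, and Cox6b2 was between 0.647 and 24.8 CPM in every other named class. Cluster 9, which had mSC and perineurial markers and got no name, had 41.4 CPM of Cox6b2 from 538 UMIs. Cox7a1, the heart and skeletal muscle form of Cox7a, was also highest in perineurial-like cells, at 41.4, 32.4 and 56.0 CPM. It was at 26.8 and 26.4 CPM in smooth muscle-like and pericyte-like cells, at 7.55 CPM or less in the other named classes, and at 29.2 CPM in cluster 9. Cox7a2, its broad paralogue, was at 376 CPM in perineurial-like cells and between 184 and 807 CPM in all classes. The other muscle forms, Cox6a2 and Cox8b, stayed at or under 5.29 and 12.0 CPM in every named class, and Cox8c, a testis form, was at 0.230 CPM or less. The 3 c-ring genes of ATP synthase, which encode the same mature protein, all lay between 93.1 and 574 CPM in every class, with Atp5g3 highest in smooth muscle-like cells (534 CPM) and Atp5g2 in cycling-like cells (574 CPM).

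Promoter sequence is shown for the broad and the restricted forms of Cox6b and Cox7a, and for Cox6a1, a broad form. Cox4i1, Cox4i2, Cox6a2, Ndufa4l2 and Sdhc had no entry in the promoter table. The windows are the 250 bases before a RefSeq start of each gene (GRCm38.p6), read 5′ to 3′ on the strand of the gene. For Cox7a2 that start lies inside the full span of the gene (chr9:79755241-79771422), so its window is not upstream of the whole gene. Capitals mark the Ets core CCGGAA and the NRF1 core GCGCATGC on either strand. These are cores of binding motifs of NRF2 (an Ets factor, GABP) and NRF1, which are known to act on respiratory chain genes. The first 2 are Cox6b1 (chr7:30626115-30626364, minus strand) and Cox6b2 (chr7:4753095-4753344, minus strand), the next 2 Cox7a2 (chr9:79759854-79760103, minus strand) and Cox7a1 (chr7:30183921-30184170, plus strand), and the last is Cox6a1 (chr5:115348959-115349208, minus strand).
Cox6b1: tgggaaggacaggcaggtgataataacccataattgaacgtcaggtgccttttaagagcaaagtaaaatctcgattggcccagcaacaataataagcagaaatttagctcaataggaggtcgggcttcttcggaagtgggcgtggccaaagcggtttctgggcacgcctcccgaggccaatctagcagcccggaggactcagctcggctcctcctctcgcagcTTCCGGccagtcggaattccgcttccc
Cox6b2: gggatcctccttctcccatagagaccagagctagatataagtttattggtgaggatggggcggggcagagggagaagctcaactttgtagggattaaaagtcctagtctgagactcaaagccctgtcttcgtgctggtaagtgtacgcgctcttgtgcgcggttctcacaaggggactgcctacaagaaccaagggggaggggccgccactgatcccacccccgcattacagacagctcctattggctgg
Cox7a2: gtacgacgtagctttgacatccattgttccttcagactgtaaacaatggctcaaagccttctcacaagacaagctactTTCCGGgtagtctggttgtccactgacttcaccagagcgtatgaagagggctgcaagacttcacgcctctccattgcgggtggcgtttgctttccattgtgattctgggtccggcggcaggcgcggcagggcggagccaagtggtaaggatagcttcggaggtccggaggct
Cox7a1: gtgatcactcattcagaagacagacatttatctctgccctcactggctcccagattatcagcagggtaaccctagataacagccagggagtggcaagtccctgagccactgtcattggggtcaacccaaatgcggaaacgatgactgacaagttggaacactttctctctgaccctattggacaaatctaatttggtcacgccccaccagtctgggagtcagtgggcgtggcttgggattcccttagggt
Cox6a1: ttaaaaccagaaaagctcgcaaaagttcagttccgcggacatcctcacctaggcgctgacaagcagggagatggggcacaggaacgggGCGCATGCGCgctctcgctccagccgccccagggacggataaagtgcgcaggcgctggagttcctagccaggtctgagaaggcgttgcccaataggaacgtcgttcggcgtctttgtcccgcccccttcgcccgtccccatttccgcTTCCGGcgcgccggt
The Ets core began 27 bases before the start used in Cox6b1, 172 in Cox7a2, where that start is internal to the gene, and 15 in Cox6a1. Cox6a1 also held the NRF1 core, which overlapped its own reverse complement at 162 and 160 bases before the start. Neither core nor the hypoxia response core ACGTG occurred in the windows of Cox6b2 and Cox7a1. Of the 85 nuclear members 69 had a promoter in the RefSeq table, and 19 of them (27.5%) held the Ets core on either strand, against 12.2% of 27025 promoters. The NRF1 core occurred in 8 (11.6%) against 2.32%, and ACGTG in 14 (20.3%) against 16.6%. The windows of the members had a median GC content of 56.4%, against 52% over all promoters. A match of letters is not a bound site.

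The next comparison asked how the members differed between Sod1KO and WT within a class. A member counted as past 1.5-fold where its ratio was beyond that limit in either direction with 50 or more UMIs over both libraries; the same rule over all genes gives the background. Classes with 50 or more cells in both libraries allowed 8 comparisons in the GFP+ and 3 in the GFP- sort. The mt- sum was higher in Sod1KO in 10 of the 11 and lower in perineurial-like cells, while the nuclear sum was higher in 6 and lower in 5. Small ratios among these changed sign with the processing. With each cell named by its own markers the mt- ratio of endothelial-like GFP+ cells went from 0.05 to -0.02 and the nuclear ratio of pericyte-like cells from 0.02 to -0.08, the nuclear ratio of smooth muscle-like GFP- cells went from 0.02 to -0.01 with doublets kept, and that of macrophage-like cells from -0.04 to between 0.01 and 0.04 under 4 alternatives.

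In no comparison and direction did the share of the nuclear members past 1.5-fold, or of all members together, exceed the background. The 13 mt- members differed from this. On the higher side 4 of 13 were past the limit in tSC-like cells (background 8.67%), 3 in endothelial-like GFP- cells (background 10.7%), 4 in pericyte-like cells (background 9.06%) and 6 in smooth muscle-like GFP- cells (background 10.4%). On the lower side 5 of 13 were past it in perineurial-like cells (background 9.59%). A single mt- gene was past it in endothelial-like GFP- cells (1 of 13, background 6.24%) and in smooth muscle-like GFP- cells (1 of 13, background 10.9%), which is no clear departure from all genes. These 13 genes are read from shared precursors of 1 genome, so they are not 13 separate observations.

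**Figure D3:**
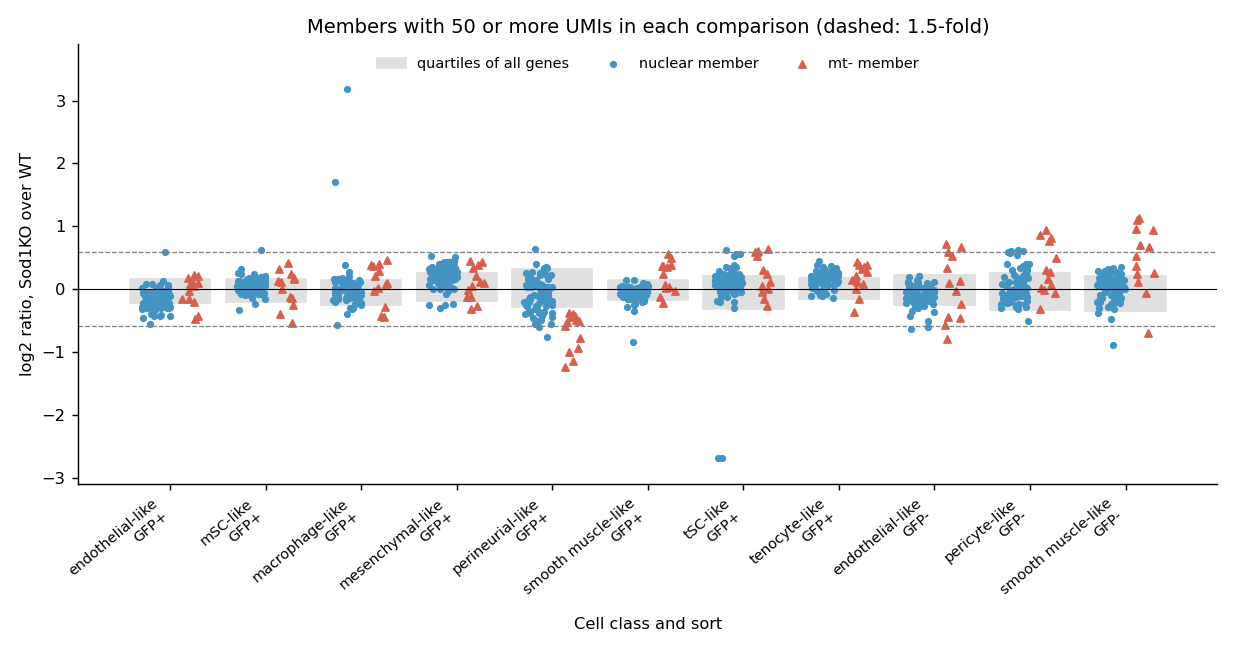
log2 ratio of Sod1KO over WT for each nuclear (circle) and mt- member (triangle) with 50 or more UMIs, by class and sort; grey bars span the quartiles of all genes, dashed lines mark 1.5-fold, and each comparison is 1 library against 1. Most nuclear members lie within 1.5-fold in each class, and the middle of the mt- members (quartile to quartile) is wider than that of the nuclear members in all 11 comparisons. The extreme points are nuclear, Cox4i2 at -2.69 in tSC-like and Ndufa4l2 at 3.19 in macrophage-like cells, while the mt- members run from -1.24 for mt-Nd6 in perineurial-like cells to 1.14 for mt-Atp6 in smooth muscle-like GFP- cells.

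In mSC-like cells (1087 WT and 635 Sod1KO cells) the members changed little. Past 1.5-fold was 1 of 91 members on the higher side (background 3.43%) and none on the lower side (background 4.45%). That member was Cox7a1, with 4.98 and 7.68 CPM from 36 and 33 UMIs and an interval of the log2 ratio from -0.10 to 1.35. Cox5a, a matrix-side subunit of complex IV, had 205 CPM in WT and 256 CPM in Sod1KO, a log2 ratio of 0.32 (0.20 to 0.43), and Uqcrc1, a core protein of complex III, 71.3 and 84.5 CPM (0.24, 0.05 to 0.44). On the lower side Ndufa3, an accessory subunit of complex I, had 135 and 107 CPM (-0.33, -0.49 to -0.17). The mt- sum differed by 0.19 on the log2 scale, and by 0.04 among cells of over 500 genes and under 5% mt- UMIs.

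In tSC-like cells (378 WT and 804 Sod1KO cells) 5 of 94 members were past 1.5-fold on the higher side (background 8.67%) and 2 on the lower side (background 13.5%), both shares under those of all genes. The higher ones were Atp5g2 and 4 mt- genes. Atp5g2 had 210 CPM in WT and 326 CPM in Sod1KO, a log2 ratio of 0.63 (0.54 to 0.72). mt-Nd3, mt-Co3, mt-Cytb and mt-Atp6 had 515, 4692, 2735 and 5453 CPM in WT and 803, 7172, 4139 and 8216 CPM in Sod1KO, log2 ratios of 0.64, 0.61, 0.60 and 0.59. Below the limit, Cox5a had 114 and 168 CPM (0.56, 0.44 to 0.69) and Uqcrc1 56.2 and 82.5 CPM (0.55, 0.37 to 0.74). The nuclear sums of complexes I, III, IV and V were higher in Sod1KO by 0.07, 0.14, 0.13 and 0.17, while complex II differed by -0.05 (-0.13 to 0.04). The median over the 81 nuclear members was 0.10, against -0.04 over all 11697 genes.

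The tSC-like class was made of 2 clusters whose cells came unevenly from the libraries, 61 WT and 596 Sod1KO GFP+ cells in cluster 8 and 317 and 208 in cluster 11. Within them the mt- sum had log2 ratios of 0.35 and 0.32, close to the 0.40 of the class, and the nuclear sum 0.09 and 0.04, below the 0.12 of the class. The number of members past 1.5-fold was 3 among cells of over 500 genes and under 5% mt- UMIs, and 1 where doublets were kept.

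The 2 members far lower in tSC-like Sod1KO cells were Cox4i2, at 22.5 CPM in WT and 3.51 CPM in Sod1KO, a log2 ratio of -2.69 (-3.26 to -2.15), and Ndufa4l2, at 38.8 and 6.04 CPM (-2.68, -3.11 to -2.28). Pericyte markers moved with them: 8 of 9 were lower in Sod1KO, their sum went from 572 to 67.2 CPM, and Rgs5 from 352 to 35.5 CPM, with none of the 9 at 0 in either library. The sum of 10 endothelial markers was 901 CPM in WT and 95.5 CPM in Sod1KO, with none at 0, and its part was not tested. The 13 of 378 WT cells with 10 or more UMIs of that list held 120 of the 140 Cox4i2 and 233 of the 241 Ndufa4l2 UMIs, and the 11 of 804 such Sod1KO cells 22 of 36 and 42 of 62. In the other tSC-like cells Ndufa4l2 was at 1.40 and 1.99 CPM (0.51, -0.73 to 1.91) and Cox4i2 at 3.49 and 1.39 CPM (-1.32, -2.42 to -0.26). Without those few cells the Ndufa4l2 levels of the 2 genotypes thus overlapped. Keeping doublets gave log2 ratios of -0.26 for Ndufa4l2 and -1.13 for Cox4i2.

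Perineurial-like cells (51 WT and 99 Sod1KO cells in the GFP+ sort) were the exception among the mt- sums, with 50486 CPM in WT and 35418 CPM in Sod1KO cells of the GFP+ sort and 40727 CPM in Sod1KO cells of the GFP- sort. The WT library was thus the highest of the 3, and GFP+ cells had a ratio of -0.51 on the log2 scale (-0.53 to -0.49). All 13 mt- genes were lower in Sod1KO GFP+ than in WT GFP+. Of the 92 members 1 was past 1.5-fold on the higher side (background 12.2%) and 7 on the lower side (background 9.59%). mt-Nd6 had 127 CPM in WT and 53.5 CPM in Sod1KO (-1.24), mt-Nd4l 681 and 308.5 CPM (-1.14), mt-Nd5 914 and 457 CPM, and mt-Atp8 and mt-Nd4 differed by -0.94 and -0.79. Cox6b2, highest in this class among the named ones, had 106 and 62.6 CPM from 46 and 83 UMIs (-0.76, -1.29 to -0.21). Ndufv2, of the NADH-oxidising module, had 196 and 129 CPM (-0.60, -0.98 to -0.21). Ndufab1, the mitochondrial acyl carrier protein, was the one on the higher side, with 94.3 and 146 CPM (0.63, 0.14 to 1.16). Where each cell was named by its markers instead of by its cluster, the mt- ratio was -0.16. The median UMI count per cell was 8575 in WT and 12303 in Sod1KO, and its part in the difference was not tested.

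In mesenchymal-like cells (267 WT and 687 Sod1KO cells) the nuclear members stood higher in Sod1KO as a group, though none of 93 members was past 1.5-fold in either direction (background 7.52% higher and 4.92% lower). Of the 80 nuclear members 73 had a ratio above 0, with a median of 0.23 against 0.02 over all 11432 genes. Atp5g1 and Atp5g2, both c-ring genes, had 184 and 248 CPM in WT and 266 and 340 CPM in Sod1KO, log2 ratios of 0.53 (0.42 to 0.64) and 0.45 (0.36 to 0.55). Ndufb8, an accessory subunit of complex I, had 124 and 177 CPM (0.52, 0.39 to 0.65). Ndufs1, which carries iron-sulphur clusters of complex I, went the other way with 31.3 and 25.4 CPM (-0.30, -0.60 to 0.00). Complexes I to V were higher by 0.25, 0.16, 0.26, 0.24 and 0.25. The 3 clusters of the class were not alike: the nuclear ratio was 0.07, 0.25 and 0.02 in clusters 4, 13 and 25, of which cluster 13 had 79 WT and 325 Sod1KO cells and the highest nuclear level, so the share of cells in each cluster moves with the sum of the class.

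In tenocyte-like cells (510 WT and 1042 Sod1KO cells) again none of 94 members was past 1.5-fold (background 5.17% higher and 2.99% lower), and 71 of the 81 nuclear members had a ratio above 0. The median was 0.17, against 0.00 over all 12418 genes. Ndufa13, a subunit of complex I also known as GRIM-19, had 426 CPM in WT and 556 CPM in Sod1KO (0.38, 0.34 to 0.43), Ndufs6 96.7 and 125 CPM (0.37, 0.28 to 0.46), and Ndufa4l2 608 and 760 CPM (0.32, 0.29 to 0.36). Cox7a2l, a factor of supercomplex assembly, differed by -0.13 (-0.20 to -0.07). Complex I was higher by 0.23 and complex II by 0.06 (0.00 to 0.13). In cluster 1, which held most of the class, the nuclear ratio was 0.17 and the mt- ratio 0.33, beside 0.18 and 0.30 for the class.

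In macrophage-like GFP+ cells (144 WT and 227 Sod1KO cells) the mt- sum was 29617 CPM in WT and 35197 CPM in Sod1KO (0.25), and the nuclear sum 13771 and 13390 CPM (-0.04). Past 1.5-fold were 2 of 92 members on the higher side (background 6.48%) and none on the lower (background 5.37%). These were Ndufa4l2, from 6 to 64 UMIs, and Cox4i2, from 11 to 42 UMIs. Of the tenocyte markers 7 of 8 were higher in Sod1KO, and the pericyte markers summed to 193 CPM in WT and 279 CPM in Sod1KO. The 10 endothelial markers summed to 478 CPM in WT and 1159 CPM in Sod1KO and the myofiber list to 61.6 and 166 CPM (1.43, 1.17 to 1.70), and the part of these lists in the ratios was not tested. The few cells with 10 or more UMIs of the pericyte list, 2 in WT and 5 in Sod1KO, held 6 of the 6 and 54 of the 64 Ndufa4l2 UMIs. Outside them Ndufa4l2 had 0 UMIs in WT and 10 in Sod1KO, and Cox4i2 had 3 UMIs in each, so its higher level rested on those few cells. With 10 or more UMIs of the tenocyte list there were 0 cells in WT and 2 in Sod1KO. These held 27 of the 42 Cox4i2 and 34 of the 64 Ndufa4l2 UMIs of Sod1KO. Ndufs1 was at 32.9 and 22.2 CPM (-0.57, -1.05 to -0.09).

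Smooth muscle-like cells were compared in both sorts. In GFP+ cells (696 WT and 677 Sod1KO cells) the mt- sum was 80807 and 100188 CPM (0.31) and the nuclear sum 34863 and 33087 CPM (-0.08). In GFP- cells (55 WT and 578 Sod1KO cells) the mt- sum was 74084 and 126823 CPM (0.78) and the nuclear sum 37438 and 37895 CPM (0.02). Both Sod1KO libraries thus lay above both WT libraries by mt- sum, while the nuclear sums overlapped. No member of 94 was past 1.5-fold on the higher side in GFP+ cells (background 5.08%) and 1 on the lower side (background 2.84%). In GFP- cells 6 of 93 were higher (background 10.4%) and 2 lower (background 10.9%), and all 6 were mt- genes, mt-Atp6, mt-Co3, mt-Co2, mt-Nd3, mt-Nd2 and mt-Cytb. With the study's limit of under 10% mt- UMIs per cell, the GFP+ ratio of the mt- sum was 0.08; 19.8%, 40.2%, 29.1% and 67.3% of these cells in WT GFP+, Sod1KO GFP+, WT GFP- and Sod1KO GFP- were at or over that limit. In cluster 3 alone, without the mt- rich cluster 18, the GFP+ ratio was 0.21. Neither check could be made for the GFP- ratio of 0.78. WT GFP- held 41 cells in cluster 3 and under 50 cells below the mt- limit.

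Ndufa4l2 was the nuclear member past 1.5-fold in smooth muscle-like cells of both sorts. It was at 309 and 172 CPM in the WT and Sod1KO libraries of the GFP+ sort and at 453 and 246 CPM in those of the GFP- sort, log2 ratios of -0.84 (-0.92 to -0.76) and -0.88 (-1.02 to -0.74). Cox4i2, which shares its highest class, differed by 0.01 (-0.09 to 0.10) and -0.04 (-0.23 to 0.16). Of the 9 pericyte markers, 5 were lower in Sod1KO in the GFP+ and 7 in the GFP- sort, and their sum was 498, 352, 1119 and 480 CPM in the order of the libraries above. Without cells that held 10 or more UMIs of that list Ndufa4l2 differed by -0.69 (-0.79 to -0.59) among GFP+ cells and by -0.13 (-0.39 to 0.13) among GFP- cells. The GFP+ difference of Ndufa4l2 was thus nearly as large without them, and its GFP- difference was within counting error. Without the same cells Cox4i2 differed by 0.07 (-0.04 to 0.17) among GFP+ cells. Among GFP- cells it was then higher in Sod1KO, by 0.40 (0.13 to 0.69), with 113 UMIs in WT. Of the 80 nuclear members tested in both sorts, 15 were higher in both, 28 lower in both and 37 opposite. Over all genes 6091 of 11236 were lower in GFP+ and 5624 of 9564 in GFP- cells, and the count in both sorts together was not made. Ndufs6, among the 15, had 227 and 252 CPM in GFP+ (0.15, 0.08 to 0.23) and 212 and 271 CPM in GFP- cells (0.36, 0.16 to 0.56).

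In endothelial-like cells, the lining of vessels, the nuclear members were on balance lower in Sod1KO in both sorts. In GFP+ cells (273 WT and 242 Sod1KO cells) their sum was 17203 and 15303 CPM (-0.17), and in GFP- cells (509 WT and 1613 Sod1KO cells) 16720 and 15802 CPM (-0.08). Of 79 nuclear members tested in both sorts, 48 were lower in both, 5 higher in both and 26 opposite. Within a sort, 68 of 79 nuclear members were lower in GFP+ and 55 of 80 in GFP- cells. Over all genes these counts were 5054 of 9137 and 6752 of 12341, and the count in both sorts together was not made. The 2 sorts of a genotype came from the same pool of mice and the same digestion, so they are not independent of each other. In GFP+ cells 1 of 92 members was past 1.5-fold on the higher side (background 4.7%) and none on the lower side (background 3.99%). It was Cox4i2, with 23 and 30 UMIs and an interval from -0.24 to 1.44. In GFP- cells 3 of 93 were higher (background 10.7%), mt-Co2, mt-Atp6 and mt-Co3, and 3 lower (background 6.24%), Ndufa3, Cox7a1 and mt-Atp8.

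Ndufa3 had 208 CPM in WT GFP- and 136 CPM in Sod1KO GFP- endothelial-like cells (-0.61, -0.70 to -0.52). Atp5k, subunit e of ATP synthase, was at 212 and 157 CPM in the GFP+ (-0.43) and 255 and 188 CPM in the GFP- sort (-0.44, -0.52 to -0.35), so that both WT libraries lay above both Sod1KO libraries. Neither gene was particular to this class. Over all cells of WT and Sod1KO, Atp5k was at 286 and 214 CPM in GFP+ and 303 and 248 CPM in GFP-. Ndufa3 was at 151 and 127 CPM and at 207 and 135 CPM likewise. Atp5k was also among the 3 lowest ratios named in mSC-like, macrophage-like, perineurial-like and smooth muscle-like GFP+ cells. Cox7a2l was higher in Sod1KO in both sorts, at 314 and 332 CPM (0.08, -0.05 to 0.21) and 296 and 343 CPM (0.21, 0.14 to 0.28). The mt- sum was 30832 and 31951 CPM in GFP+ (0.05) and 30609.7 and 38976 CPM in GFP- cells (0.35), with only Sod1KO GFP- apart from the other 3.

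Pericyte-like cells, which wrap capillaries, could be compared in the GFP- sort (64 WT and 234 Sod1KO cells), where the myofiber list summed to 29.2 and 64.0 CPM. The mt- sum was 44002 CPM in WT and 65448 CPM in Sod1KO (0.57), and the nuclear sum 19544 and 19829 CPM (0.02, -0.01 to 0.05). Past 1.5-fold on the higher side were 8 of 93 members (background 9.06%) and none on the lower side (background 10.1%). Of these, 4 were mt- genes (mt-Atp6, mt-Co3, mt-Co2 and mt-Nd3), and the others Atp5o, a stalk subunit of ATP synthase with 118 and 183 CPM (0.63, 0.25 to 1.02), Ndufv2 with 80.6 and 123 CPM (0.61, 0.15 to 1.09), Ndufb5 with 101 and 154 CPM (0.60, 0.20 to 1.03) and Cox5a. Ndufa4l2 and Cox4i2, the mark of this class, differed by -0.16 (-0.26 to -0.06) and -0.23 (-0.38 to -0.08).

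The 13 mt- genes did not shift together. Over all GFP- cells mt-Atp6 was at 6319 and 10905 CPM in WT and Sod1KO (0.79) and mt-Co3 at 5149 and 8257 CPM (0.68), while mt-Atp8 was at 242 and 162 CPM (-0.58) and mt-Nd6 at 88.2 and 60.2 CPM (-0.55). Over all GFP+ cells the same genes had log2 ratios of 0.08, 0.22, -0.50 and -0.42. mt-Co1, the catalytic subunit of complex IV, differed by -0.16 in GFP+ and -0.02 in GFP- cells, beside 0.09 and 0.60 for mt-Co2 of the same complex. In each of the 11 class comparisons mt-Co3 had a higher ratio than mt-Atp8. The ratios of these counts were not ordered by complex. The counts of the complex V genes mt-Atp6 and mt-Atp8 stood at opposite ends. Their sequences overlap by 43 bases, so their ratios cannot be read as levels of separate transcripts. Those of complex I ranged from mt-Nd3 near the top to mt-Nd6 at the bottom. The lower ends rest on mt-Atp8 and mt-Nd6, whose sequences overlap mt-Atp6 and mt-Nd5, so these counts are less certain. The part of the overlaps in the ratios was not tested.

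**Figure D4:**
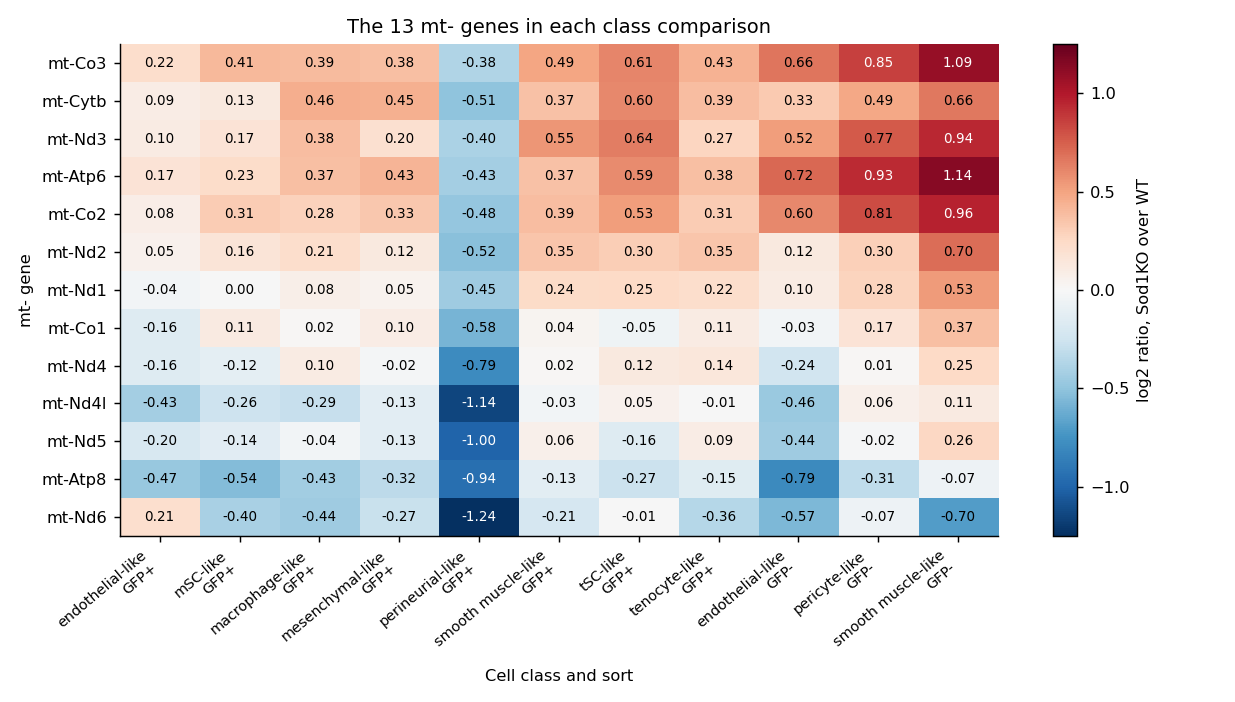
log2 ratio of Sod1KO over WT for each mt- gene (rows, ordered by their median) in each class and sort (columns), 1 library against 1; red is higher and blue lower in Sod1KO. mt-Co3, mt-Cytb, mt-Nd3, mt-Atp6 and mt-Co2 are the top rows and mt-Atp8 and mt-Nd6 the bottom rows, and the perineurial-like column is blue throughout, from -0.38 to -1.24.

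The sort could also be compared within a genotype. In Sod1KO the mt- sum was lower in GFP+ than in GFP- cells of the same class in endothelial-like (-0.29), smooth muscle-like (-0.34), macrophage-like (-0.28), tenocyte-like (-0.21), perineurial-like (-0.20) and mesenchymal-like cells (-0.18), and higher in cycling-like cells (0.20). In WT, endothelial-like cells differed by 0.01 (0.00 to 0.02) and smooth muscle-like cells by 0.13. The Sod1KO GFP- library thus stood above the Sod1KO GFP+ library in 6 of 7 classes, and a feature of that library cannot be told apart from one of the GFP- cells of this genotype.

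Of 69 further genes of the pathway (carriers, assembly factors, regulators and mitochondrial DNA maintenance), 2 of 67 were past 1.5-fold higher (background 8.67%) and 4 lower (background 13.5%) in tSC-like cells, both under the share of all genes. Ppargc1a, the coactivator known to drive mitochondrial biogenesis, had 35.3 CPM in WT and 15.4 CPM in Sod1KO tSC-like cells (-1.20, -1.50 to -0.89) and 115 and 43.7 CPM in perineurial-like cells (-1.40, -1.97 to -0.82). Over all GFP+ cells it was at 21.9 and 14.1 CPM (-0.64), but over all GFP- cells at 4.28 and 9.71 CPM, the other way (1.18, 0.87 to 1.51). Higd1b had 14.2 and 1.95 CPM in tSC-like cells (-2.86), from 88 and 20 UMIs, beside the lower pericyte markers given above. In the GFP- sort Polg2, the accessory subunit of the mitochondrial DNA polymerase, was at 36.0 and 71.5 CPM in endothelial-like (0.99, 0.79 to 1.19) and 44.6 and 98.3 CPM in pericyte-like cells (1.14, 0.55 to 1.79). Atpaf1, an assembly factor of ATP synthase, was lower in endothelial-like GFP- (24.6 and 11.2 CPM, -1.13), mesenchymal-like (22.6 and 10.5 CPM, -1.11) and tenocyte-like cells (15.7 and 10.2 CPM, -0.62). Ucp2, a carrier of the inner membrane, had 31.7 and 59.3 CPM in mesenchymal-like cells (0.90, 0.65 to 1.16). Of those of the 69 with enough UMIs, 8 of 32 were past 1.5-fold in either direction in perineurial-like cells, beside 1181 of 5430 genes in all, and 8 of 64 in smooth muscle-like GFP- cells, beside 2033 of 9564. The fewest were 1 of 66 in smooth muscle-like GFP+ cells (890 of 11236 genes) and 1 of 47 in macrophage-like cells (1016 of 8574).

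Some clusters held many mt- and few nuclear members. With limits set after seeing the values, 6 of 36 clusters had under 6000 CPM of nuclear members, and these held 7.60%, 9.05%, 2.78% and 5.27% of the cells of WT GFP+, Sod1KO GFP+, WT GFP- and Sod1KO GFP-. Cluster 18, with smooth muscle markers, had 304654 CPM of mt- and 5508 CPM of nuclear members and 72825 CPM of Malat1, a nuclear RNA, where cluster 3 with the same markers had 83803, 37526 and 30772 CPM. Clusters 21, 26, 34 and 35, with markers of mSC, tSC, endoneurial fibroblasts and tenocytes, held 3532, 2117, 2149.7 and 1910 CPM of nuclear members and 154663, 112906, 99842 and 127643 CPM of mt- members. A cell's mt- level and its nuclear-encoded level were thus far apart in these clusters, which spanned several cell types, and whether the cells were damaged was not tested.

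**Figure D5:**
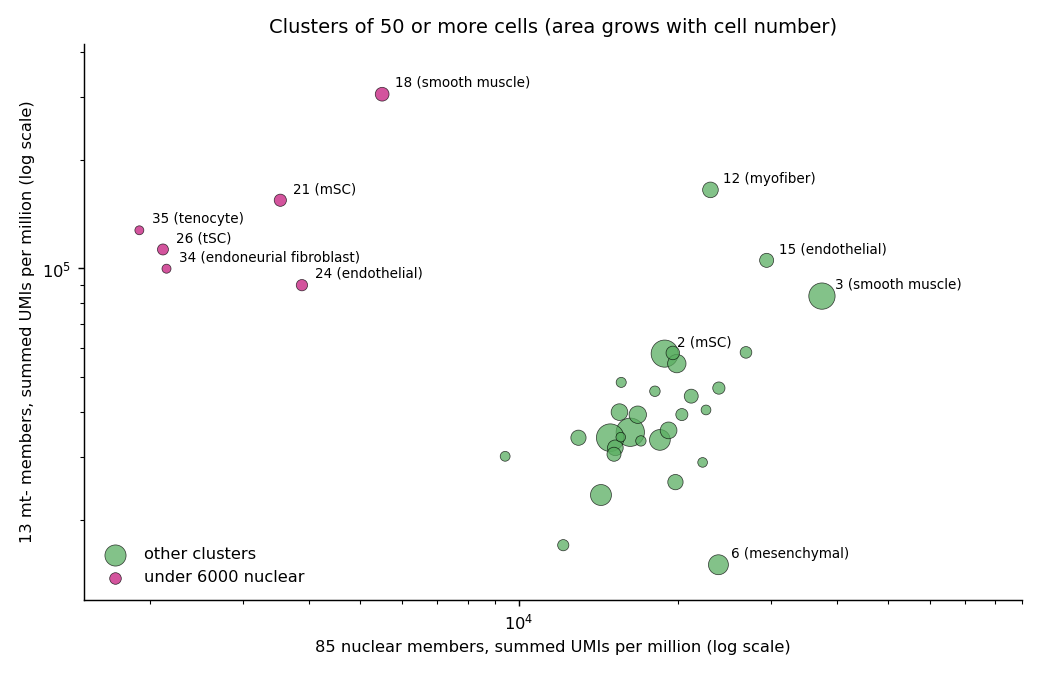
Each point is a cluster of 50 or more cells, placed by its summed level of nuclear (horizontal) and mt- members (vertical) in CPM, both on log axes; area grows with cell number and labels give the cluster and its best-matching markers. The 6 clusters under 6000 CPM of nuclear members stand to the left, with mt- levels from 89873 to 304654 CPM.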

How the data were processed

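The authors deposited, for each of the 4 libraries, a matrix of UMI counts per gene and cell barcode from 3' single-cell libraries; the submitters' processing notes name Cell Ranger 7.1.0, Seurat 4.30 and mm10. The counts were used as deposited and not normalized by the authors; total UMIs per library were 81320146, 105954116, 21959719 and 101410418 (WT GFP+, Sod1KO GFP+, WT GFP-, Sod1KO GFP-). Cells with over 200 genes were kept, and doublets were scored against simulated ones and removed at 0.8% per 1000 barcodes (235, 413, 33 and 336 cells). The study's limit of under 10% mt- UMIs was not applied, because it cuts the quantity measured. Cells were clustered with the members left out (2000 most variable genes, 30 principal components, 20 neighbours, Leiden resolution 1). A name needed at least 3 markers of 1 of 20 lists over 20 CPM and over 2 times the other clusters. No name was given where another list had more markers among the 10 genes of highest fold, or as many markers in all. The same held where another list had at least 50% of its markers and 5 or more. Clusters of few UMIs per cell with no marker among those 10 genes also got no name. Clusters 21 and 26 thus stayed unnamed, while clusters 18 and 35 were named.

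Counts were summed over the cells of a class and library and divided by the total UMIs (CPM). Levels have exact Poisson intervals, log2 ratios exact conditional binomial (Clopper-Pearson) intervals and shares exact binomial intervals, all at 95%. Ratios with at most 3 UMIs were given no value. With 1 library per group no test was made. The interval and count steps were tested on simulated data.

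Named genes were the mt- genes, the paralogue sets, the class-restricted members, the 5 nuclear members of highest level and, per class compared, up to 3 members with the highest and 3 with the lowest ratio among those with 100 or more UMIs with the same direction in GFP+ and GFP- cells where both could be compared; members past 1.5-fold outside this rule were named after their values were seen. The members and lists were chosen with earlier results of these data known. Promoters and positions came from RefSeq on GRCm38.p6, whose primary sequence mm10 also names. Clusters were made with scikit-learn 1.9.0, leidenalg 0.10.2 and igraph 0.11.9, intervals with scipy 1.17.1, tables with pandas 2.3.3 and numpy 2.4.6, and plots with matplotlib 3.10.9, under Python 3.11.15. Alternatives in cell filter, doublets, scaling, free RNA, class naming and limits were tried.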

Additional observations from a re-analysis of the deposited data

Results flagged for a closer look

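The mt- sum of perineurial-like GFP+ cells had a log2 ratio of -0.51 for Sod1KO over WT, while the other 10 class comparisons lay between 0.05 and 0.78. The lowest of these, 0.05 in endothelial-like GFP+ cells, became -0.02 where each cell was named by its own markers. The difference between the classes was not tested, since each value compares 1 library with 1, and the WT library held 51 of these cells.

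The skeletal muscle isoforms of complex IV stood out in cells that no class comparison used, though the sums over all cells held them. Cluster 12, which matched 14 myofiber markers and got no class name, had 329.5 CPM of Cox6a2, 262.8 CPM of Cox8b and 124.9 CPM of Cox7a1 with the libraries together. These lay above the levels of every named class, but for Cox7a1 this rested on Sod1KO GFP-. Cox6a2 was at 20.4, 147, 4.28 and 564 CPM in WT GFP+, Sod1KO GFP+, WT GFP- and Sod1KO GFP-, and Cox8b at 30.5, 90.5, 4.28 and 456 CPM, so that Sod1KO GFP- was the highest library for both. Cox7a1 was at 5.09, 23.5, 12.8 and 223 CPM in the same order, and the first 3 of these lay below the 47.7 CPM of perineurial-like cells. The cluster had a median of 1213 UMIs per cell and a median mt- share of 19.1%.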

How the results depend on the processing

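Where the processing was changed, the mt- ratio over all GFP+ cells (0.03) was -0.02 with under 10% mt- UMIs, 0.13 with over 500 genes and under 5% mt- UMIs, 0.02 with doublets kept, 0.04 with median-of-ratios scaling, 0.06 without Gm42418 in the total, 0.06 as a mean of per-cell CPM, 0.16 as an unweighted mean over classes, 0.01 without the 6 clusters of high mt- share and 0.02 without the 6 of low nuclear level. The nuclear ratio of GFP+ cells (-0.11) was, in the same order, -0.13, 0.01, -0.10, -0.10, -0.08, -0.09, 0.01, -0.10 and -0.11. The mt- ratio of GFP- cells (0.42) was 0.31, 0.35, 0.43 with median-of-ratios scaling, 0.45, -0.15 as a mean of per-cell CPM, 0.64, 0.42 and 0.37, and 0.44 with a total without mt- genes. The nuclear ratio of GFP- cells (-0.02) was -0.11, -0.16, -0.01, 0.01, -0.09, 0.00, -0.01 and -0.01 likewise, and 0.00 with a total without mt- genes. The cause of these changes was not tested.

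Members past 1.5-fold in endothelial-like GFP+ cells numbered 1, and 0 under the 10% limit, the stricter limits, naming of each cell by its markers and a limit of 200 UMIs, and 2 with free RNA subtracted; there Cox4i2 had a log2 ratio of -0.20 by per-cell naming. In mSC-like cells 1 became 0 under the 10% limit, per-cell naming and 200 UMIs, and 2 with doublets kept. Mesenchymal-like cells went from 0 to 1 with free RNA subtracted or per-cell naming, tSC-like cells from 7 to 3 under the stricter limits or per-cell naming and 1 with doublets kept, and endothelial-like GFP- cells from 6 to 3 by per-cell naming. Class-restricted members numbered 70 with a 2-fold limit in place of 5. Of 204 class sums under alternatives 9 changed sign. The alternatives that drop the 2 sets of 6 clusters, or cells with pericyte or tenocyte UMIs, were chosen after seeing the data.

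Mesenchymal-like GFP- cells were not compared, since WT had under 50. With 1 library per group, leaving out a replicate leaves no comparison. No paired analysis was possible because each group was 1 library. Depth limits members of few UMIs in the small classes.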
